A study of Homo sapiens with 24 samples.

Results

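Cytosolic ribosomal protein genes encode the protein subunits of the ribosomes that translate nuclear mRNAs. The 82 genes described here were chosen by gene symbol and gene type alone, with no measured value. A gene was a member if it was annotated as protein coding and its symbol was RPL or RPS followed by a number, with or without a final A, L, X or Y, or was one of RPLP0, RPLP1, RPLP2, RPSA and FAU. The deposited table held 61533 genes. All 82 members passed the filter on low counts, 49 of them for proteins of the large subunit and 33 for the small subunit. The rule also takes in 4 paralogs that make a variant of a subunit (RPL3L, RPL10L, RPL39L and RPS27L). It does not take in, among others, RPL36AL, RPL22L1, RPL26L1, RPL7L1 and RPS4Y1.

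RNA made during a short labelling period was measured (4sU-seq) in U2OS, a human osteosarcoma cell line with little glucocorticoid receptor (GR) of its own. All 3 lines stably carried GR with a C-terminal HaloTag, inserted with the PiggyBac transposon and driven by the CMV promoter, and differed in the receptor: wt GR-HaloTag, SoF K492A GR-HaloTag (a separation-of-function mutant made to bind RNA poorly) and Ctrl R470A GR-HaloTag (a mutant with its DNA binding weakened to match SoF). The cells were given the glucocorticoid dexamethasone (100 nM, lasting 1, 2 or 3 h) or, as the 0 h group, ethanol at 0.01% for a time not stated, and 4-thiouridine (4sU) at 200 µM for the last 1 h. Line and time made 12 groups of 2 libraries, and each line was 1 sorted fraction of a puromycin-selected pool, so that the receptor and the cell pool cannot be told apart.

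A ribosome needs 1 copy of nearly every one of these proteins, and their genes are among the most heavily transcribed protein-coding genes of growing cells. Their mRNAs typically begin with a C followed by a run of pyrimidines, the 5′ terminal oligopyrimidine (TOP) tract, through which LARP1 and the kinase mTOR control their translation. Many of the genes carry small nucleolar RNAs (snoRNAs) in their introns, and many have processed pseudogenes elsewhere in the genome. Glucocorticoids are known to slow protein synthesis in several tissues. The comparisons below ask whether transcription of this large, coordinated group moved with dexamethasone, and whether it differed between cells with the different receptors.

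The start sites carry the shared sequence of the group. RefSeq (GRCh38.p14) gave a window from 250 bases before to 50 bases after the start for 65 of the 82 members. Of these 65, 54 (83.1%) had a tract of C and at least 4 further pyrimidines that began within 5 bases of an annotated start. The share was 25.2% of all 27305 genes with a window. A gene with several annotated starts counted if any of them matched, and the start printed below for such a gene was picked by its tract. It was present in 33 of 39 large-subunit genes (84.6%) and 21 of 26 small-subunit genes (80.8%). The lines that follow give the sequence from 10 bases before the start to 20 bases after it, 5′ to 3′ on the strand of the gene. The tract is in capitals, from the C nearest the start among those with at least 4 pyrimidines directly after them. Further pyrimidines can therefore stand in lower case before it. RPL3, RPS6 and RPLP0 are shown because they mark the group, RPL13, RPL14, RPSA and RPS24 because results below turn on them, and RPL41 and RPL10 for a short and a long marked tract:
RPL3: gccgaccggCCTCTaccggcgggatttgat
RPS6: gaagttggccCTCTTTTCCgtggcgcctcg
RPLP0: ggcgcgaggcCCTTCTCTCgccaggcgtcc
RPL13: gggccgcttcCTTTCCgctcggctgttttc
RPL41: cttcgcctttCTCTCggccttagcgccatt
RPL10: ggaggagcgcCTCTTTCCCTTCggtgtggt
RPL14: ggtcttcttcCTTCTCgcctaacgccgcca
RPSA: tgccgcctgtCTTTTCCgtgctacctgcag
RPS24: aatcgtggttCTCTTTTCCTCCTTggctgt
These windows lie at chr22:39319604-39319633 (minus strand, RPL3), chr9:19380217-19380246 (minus, RPS6), chr12:120201092-120201121 (minus, RPLP0), chr16:89560672-89560701 (plus, RPL13, which has 3 annotated starts), chr12:56116623-56116652 (plus, RPL41), chrX:154398367-154398396 (plus, RPL10, also with 3 annotated starts), chr3:40457329-40457358 (plus, RPL14), chr3:39406710-39406739 (plus, RPSA) and chr10:78033853-78033882 (plus, RPS24). The marked tract ran from 5 bases in RPL3 and RPL41 to 14 bases in RPS24 among those printed.

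In 11 of the 65 members with a window no such tract stood at any annotated start: RPL6, RPL9, RPL10L, RPL15, RPL17, RPL27, RPS4X, RPS15, RPS26, RPS27L and RPS29. Among the paralogs with a window, RPL10L and RPS27L were both in this set, and RPS4X is the X-linked gene for the small-subunit protein S4. Their windows are printed for contrast, in lower case throughout:
RPS4X: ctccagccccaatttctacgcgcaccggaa
RPL10L: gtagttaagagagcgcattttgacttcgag
RPS27L: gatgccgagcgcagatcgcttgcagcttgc
They lie at chrX:72277229-72277258 (minus strand), chr14:46651762-46651791 (minus) and chr15:63157458-63157487 (minus). A tract that is absent from a window says only that the letters are not at this annotated start.

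Short motifs, TATAAA included, were searched in the whole windows on both strands. CCGGAA, the core bound by ETS factors, was in 38 of 65 members (58.5%) against 20.1% of all genes with a window. In 3 of the 38, every match overlapped the pyrimidine tract. AAGATGGC, the core bound by YY1, was in 7 members (10.8%) against 3.5% of all genes with a window. TATAAA was in 6 members (9.2%) against 14%. The palindrome bound by the GR dimer, written as GNACA, then NNN, then TGTNC, was in 0 of 65 members and in 0.5% of all genes with a window. A match is a description of the letters, and none of these matches was tested for binding.

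Total counts ranged from 8106036 to 15820806 per library, and the 82 genes took 1.26% to 1.66% of them (median 1.46%). Levels below are CPM (counts scaled to a common library total with TMM factors), and levels are compared between genes only as CPM per kb of exon. NR3C1, the gene for GR, is both endogenous and carried by the constructs, and stood at 334 to 1595 CPM in wt, 1118 to 6273 CPM in SoF and 1627 to 7658 CPM in Ctrl. These are levels of labelled RNA and not of the receptor protein. The study chose the sorted fractions so that nuclear GR after dexamethasone, seen by immunofluorescence, matched between the lines. Of the markers of the osteoblast lineage, RUNX2 (51.5 to 158 CPM), ALPL (8.07 to 44 CPM) and COL1A1 (249.5 to 1008 CPM) were present, while BGLAP, SPP1 and COL1A2 stayed under 3.2 CPM. The markers PTPRC of blood cells, EPCAM of epithelium and PECAM1 of endothelium were at or under 3.60 CPM throughout. Nothing in the labels says whether the 2 libraries of a group came from separate cultures, so p-values measure the spread between these libraries. The study pulled down labelled RNA in pairs of replicates. If a pair was the 2 libraries of a group, each group had its own pulldown. Pulldown then cannot be told apart from line and time in any comparison below.

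The 82 genes differed in level per kb of exon. Labelled RNA ranged from 0.516 CPM per kb for RPL3L to 244 CPM per kb for RPS12, with a median of 46.8. The length used was that of all annotated exons of a gene together, 639 bases for RPS12 and 9840 bases for RPS29. These values therefore depend on the annotation and are not rates of transcription. RPL41, which encodes the shortest ribosomal protein, stood next to RPS12 at 243 CPM per kb, and RPL10A, a large-subunit protein, followed at 181 CPM per kb. At the low end, RPL39L (5.83 CPM per kb) and RPS27L (8.67 CPM per kb) came after RPL3L. In plain CPM, 76 of the 82 genes averaged over 50 CPM and 62 averaged over 100 CPM, and 3 fell under 10 CPM. These 3 were paralogs: RPL3L, known from striated muscle, RPL39L, and RPL10L, known from testis.

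The genes differed in how far they ranged over the 24 libraries. RPL36, for example, stood at 27.1 CPM in SoF 1 h replicate 2 and 56.1 CPM in wt 0 h replicate 1. The coefficient of variation over all libraries, lines and times together had a median of 12.8% and ran from 6.62% for RPL5 to 30.0% for RPL3L. RPL5 and RPL11, which with 5S rRNA form the particle that binds MDM2, lay at 204 to 271 CPM and 119 to 170 CPM. The stalk proteins RPLP0, RPLP1 and RPLP2, which recruit translation factors, lay at 361 to 591 CPM, 199 to 340.2 CPM and 41.6 to 71.9 CPM. RPLP0 also served the study as the reference gene for RT-qPCR. The small-subunit genes RPS6, the classic substrate of S6 kinase, and RPSA, also known as the laminin receptor, lay at 138 to 195 CPM and 240.3 to 376 CPM. FAU and RPS27A, which encode a ribosomal protein fused to a ubiquitin-like protein or to ubiquitin, lay at 27.7 to 55.1 CPM and 200.3 to 331 CPM.

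These levels carry a limit of mapping. Of the 82 members, 77 had at least 1 annotated pseudogene, 1588 pseudogenes in all, with a median of 12.5 per member and a highest of 133. Reads that match a parent and a pseudogene can be lost or split, and RNA of the parent can be counted at a pseudogene. The level per kb and the number of pseudogenes, both on the log2 scale, had a correlation of 0.38 across the 82 genes, which share the same libraries. An exon overlapped another gene on the same strand in 35 members and on the opposite strand in 26. Within their bounds, 28 members held 60 snoRNA genes.

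The level of the group as a whole was first taken as a sum. The summed CPM of the 82 genes in wt was 17682 and 14111 at 0 h, 14936 and 12303 at 1 h, 16737 and 15749 at 2 h, and 14000 and 15049 at 3 h (replicates 1 and 2). In SoF it was 15354 and 11963 at 0 h, 14084 and 12763 at 1 h, 15119 and 14089 at 2 h, and 13469 and 14663 at 3 h. In Ctrl it was 15426 and 12475 at 0 h, 13653 and 15388 at 1 h, 15756 and 15746 at 2 h, and 13919 and 16002 at 3 h. In every line the 0 h replicates were far apart, replicate 1 was the higher, and the 0 h and 3 h values overlapped.

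**Figure D1:**
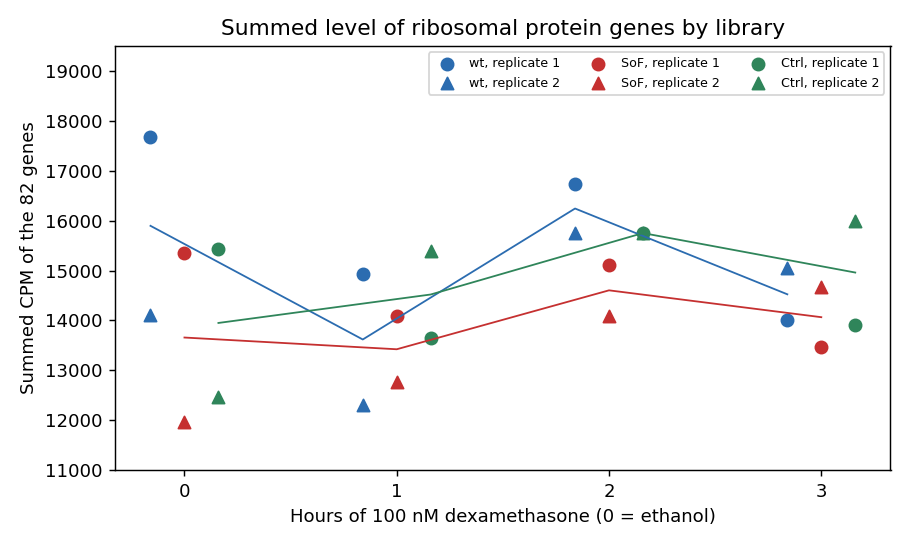
Summed CPM of the 82 ribosomal protein genes (vertical axis, not starting at 0) against hours of dexamethasone (horizontal axis, 0 is ethanol) for wt, SoF and Ctrl, with circles for replicate 1, triangles for replicate 2 and lines through the means of the 2 libraries. The 0 h replicates lie far apart in each line, for example 17682 and 14111 in wt, while the 2 h replicates lie close together, for example 15756 and 15746 in Ctrl.

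The gap at 0 h was shared by the members. On the log2 scale, replicate 1 exceeded replicate 2 by a median of 0.32 in wt 0 h, with 81 of 82 genes higher in replicate 1. The gap was 0.38 in SoF 0 h (79 of 82 genes) and 0.32 in Ctrl 0 h (79 of 82). The median over all tested genes in these pairs was near 0. A gap of this size stood in 1 other group, wt 1 h (0.28, 79 of 82 genes), and the remaining groups ranged from -0.21 to 0.15. Other lists moved with it at 0 h in wt, SoF and Ctrl: abundant glycolysis genes by 0.43, 0.51 and 0.54, and mitochondrial ribosomal protein genes by 0.18, 0.27 and 0.23. Across the 82 genes the 0 h gap was larger for genes with higher exon GC content (Pearson's r 0.72, 0.56 and 0.56). The part of GC content or library preparation in this gap was not tested. Every comparison with 0 h below rests on these 6 libraries.

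Dexamethasone was then compared with ethanol within each line. In none of the 3 lines, at none of the 3 times, was any of the 82 genes called against 0 h at an adjusted p under 0.05 (the quasi-likelihood test of edgeR, Benjamini-Hochberg adjusted over 23651 genes). The share of all tested genes called in either direction rose from 0.156% at 1 h to 4.6% at 2 h and 10.7% at 3 h in wt, from 0.165% to 5.68% and 19.3% in SoF, and from 0.0465% to 7.95% and 14.2% in Ctrl. DESeq2 also called 0 of the 82 in each of the 9 comparisons. At an unadjusted p under 0.05 in edgeR's test, 11, 1 and 4 members passed in wt at 1, 2 and 3 h, 3, 0 and 1 in SoF, and 0, 5 and 1 in Ctrl. The shares of all tested genes at that threshold were 11%, 18.6% and 24.7% in wt, 6.96%, 19.9% and 32.6% in SoF, and 1.79%, 22.9% and 28.4% in Ctrl. The 3 times of a line share its 0 h libraries.

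The median of the members moved furthest from 0 in wt at 1 h. In wt the median log2 fold change of the 82 genes was -0.24 at 1 h, 0.03 at 2 h and -0.13 at 3 h, with 79, 31 and 71 genes below 0. In SoF it was -0.04, 0.09 and 0.03, and in Ctrl 0.05, 0.18 and 0.08. The median of all tested genes lay between -0.03 and 0.01 in these comparisons. A single gene's 95% interval had a median half-width of 0.35 on the log2 scale, so that shifts of the size of these medians could not be called for single genes. Still, 81 of the 82 intervals lay within 2-fold of no change in every one of the 9 comparisons, and at 3 h 60, 70 and 55 of the 82 lay within 1.5-fold in wt, SoF and Ctrl.

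RPLP0 shows the pattern in single libraries. In wt it stood at 591 and 426 CPM at 0 h, 484 and 374 at 1 h, 560.3 and 509 at 2 h, and 428 and 503 at 3 h. In SoF it stood at 503 and 361 CPM at 0 h and 428 and 483 at 3 h, and in Ctrl at 484 and 365 CPM at 0 h and 441 and 546 at 3 h. In wt and SoF both 3 h values fell between the 0 h values, and in Ctrl the groups overlapped. At 3 h the log2 fold changes were -0.13 ± 0.19 (SE, 2 libraries each), 0.08 ± 0.19 and 0.22 ± 0.19 for wt, SoF and Ctrl, each smaller than or near its error.

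RPL3, a core large-subunit protein, stood at 534 and 409 CPM at 0 h and 365 and 429 at 3 h in wt, at 399 and 326 against 353 and 388 in SoF, and at 411 and 318 against 346 and 404 in Ctrl. Its log2 fold changes at 3 h were -0.25 ± 0.18, 0.03 ± 0.18 and 0.04 ± 0.18 for wt, SoF and Ctrl. RPS6 changed by -0.08 ± 0.15, 0.06 ± 0.16 and 0.03 ± 0.16. For both genes the 0 h and 3 h values overlapped in each line.

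Leaving out single libraries gave calls in 3 of these 9 comparisons, each time without replicate 1 of the 0 h group. Without Ctrl 0 h replicate 1, 7 members were higher at 2 h (median 0.31, against 8.27% of all tested genes higher) and 5 at 3 h (median 0.26, against 10.9%) in Ctrl. Without SoF 0 h replicate 1, 1 member was higher at 3 h in SoF, against 12%.

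**Figure D2:**
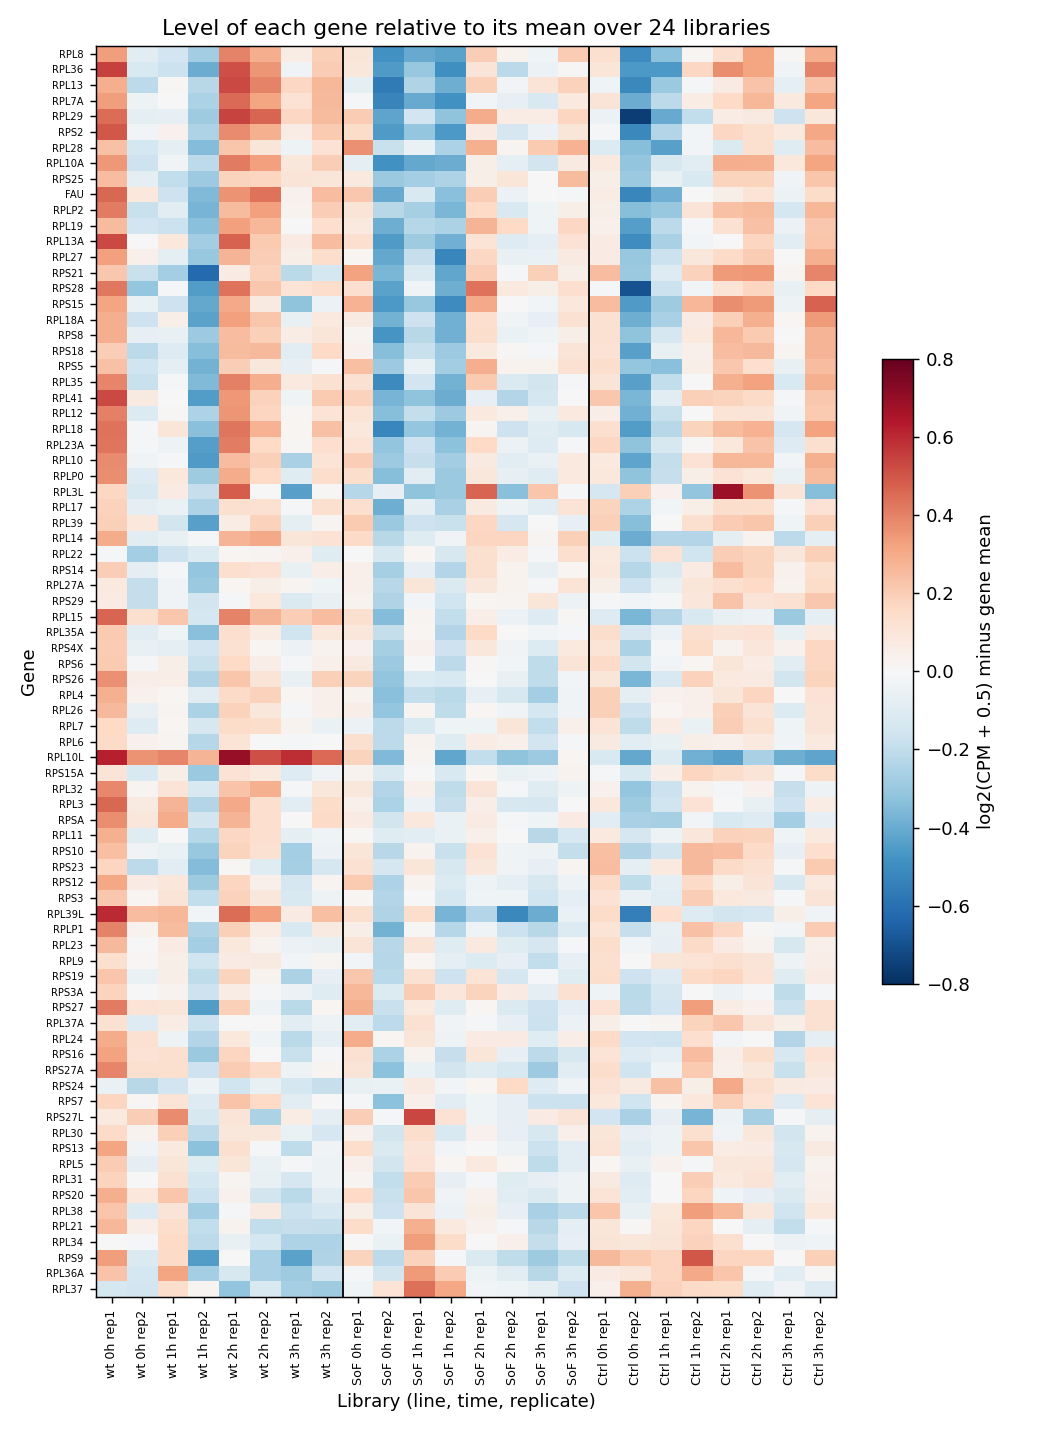
Level of 80 of the 82 genes (vertical axis, ordered by the change from 1 h to 3 h) in each of the 24 libraries (horizontal axis), as log2(CPM + 0.5) minus the gene's mean over the libraries, with red for higher and blue for lower. Most genes of the upper part are red in wt 0 h replicate 1 and blue in SoF 0 h replicate 2 and Ctrl 0 h replicate 2, and RPL10L is red across the 8 wt libraries.

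Averaging the time effects over the 3 lines uses 6 libraries per time and gave calls among the members. At 1 h, 0 of 82 were called (share of all tested genes higher 0.731%, lower 0.55%; 2 members and 14.1% of all tested genes passed at an unadjusted p under 0.05 in edgeR's test, and 0 members in DESeq2 after adjustment), with a median of -0.07. At 2 h, 5 were higher and 0 lower, against 16.2% and 12.6% of all tested genes, with a median of 0.10 against -0.03 over all genes. At 3 h, 1 was higher and 3 lower, against 20.9% and 19.3%, with a median of -0.02 against -0.03. All 82 intervals at 3 h lay within 1.5-fold of no change. The counts of members stand beside the shares of all genes as a description, and the difference between members and other genes was not tested.

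The 5 genes higher at 2 h were RPL13, RPL19, RPL10A and RPL29 of the large subunit and RPS18 of the small subunit. RPL13 ranged over 170.4 to 308 CPM at 0 h (median 228), 248 to 364 CPM at 2 h (median 291) and 239 to 304 CPM at 3 h (median 285) over the 6 libraries of each time, and the ranges overlapped. Its change was 0.40 ± 0.11 at 2 h (1.32-fold; adjusted p = 0.00923, edgeR quasi-likelihood test) and 0.31 ± 0.11 at 3 h (adjusted p = 0.0264 in the same test). It was the single member called higher at 3 h, and this call was lost in 8 of 20 alternatives, the GC correction described below among them. The other 4 changed by 0.27 to 0.32 at 2 h. Of 20 alternatives, 7 lost the 2 h call of RPL19, 8 that of RPL10A, 12 that of RPL29 and 14 that of RPS18.

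The 3 genes lower at 3 h were RPL21 and RPL24 of the large subunit and RPS9 of the small subunit. RPL21 stood at 111 to 136 CPM at 0 h (median 119) and 96.8 to 111 CPM at 3 h (median 99), so the groups touched at their edges. RPL24 stood at 113 to 154 CPM at 0 h (median 138) and 106 to 130.3 CPM at 3 h (median 118). RPS9 stood at 102 to 150 CPM at 0 h (median 136) and 88.1 to 135 CPM at 3 h (median 101). The falls were -0.24 ± 0.08, -0.24 ± 0.08 and -0.28 ± 0.11, and edgeR's quasi-likelihood test gave adjusted p of 0.0202, 0.0286 and 0.0404. These calls were lost in 8, 9 and 11 of 20 alternatives for RPL21, RPL24 and RPS9.

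The calls against 0 h depended on which 0 h libraries were used. Without the 3 libraries of 0 h replicate 1, an alternative chosen after seeing the data, 0 members were called at 1 h (median 0.10; 0.451% of all tested genes higher and 0.0732% lower), 45 members were higher and 0 lower at 2 h (median 0.26; 21.1% and 19% of all tested genes) and 33 were higher and 1 lower at 3 h (median 0.17; 24.1% and 21.1%). Without the 3 libraries of 0 h replicate 2, 1 member was higher and 33 were lower at 1 h (median -0.23; 10% and 11.7% of all tested genes), 0 were called at 2 h (median -0.06; 8.68% and 4.73%), and 0 were higher and 9 lower at 3 h (median -0.16; 15.6% and 12.1%). The direction of the group against ethanol therefore turned with the 0 h replicate, and no direction was taken from it. Among single libraries left out, the count at 2 h went from 5 to 11, 18 and 13 higher without replicate 1 of wt, SoF and Ctrl 0 h, and to 0, 1 and 1 without replicate 2. It also went to 1 without wt 2 h replicate 1, SoF 2 h replicate 1 or Ctrl 2 h replicate 2, and to 3 without wt 2 h replicate 2 or Ctrl 2 h replicate 1. At 3 h the 4 calls went to 10 without Ctrl 0 h replicate 1 (8 higher, 2 lower), to 2 without wt 0 h replicate 1, Ctrl 0 h replicate 2, wt 3 h replicate 1, SoF 3 h replicate 2 or Ctrl 3 h replicate 2, and to 1 without wt 3 h replicate 2, SoF 3 h replicate 1 or Ctrl 3 h replicate 1. Without SoF 0 h replicate 1 it was 4 higher and 0 lower, and without wt or SoF 0 h replicate 2 it was 0 higher and 3 lower. Over these single-library fits, 11.8% to 17.4% of all tested genes were higher and 8.22% to 14.6% lower at 2 h, and 17.5% to 21.7% higher and 14.6% to 19.4% lower at 3 h.

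The comparison of 3 h with 1 h of dexamethasone uses no 0 h library. Of the 82 genes, 14 were higher and 5 lower at 3 h than at 1 h, against 25% and 25.6% of all tested genes, and the median was 0.06 against -0.04. Among large-subunit genes 10 were higher and 4 lower, and among small-subunit genes 4 and 1. Of the 28 members with a snoRNA gene inside, 5 were higher and 2 lower, and of the 54 without, 9 and 3.

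The higher genes included RPL7A, RPL8, RPL10A, RPL13, RPL19, RPL27, RPL28, RPL29, RPL36 and the stalk gene RPLP2, and RPS2, RPS25 and FAU of the small subunit. All 14 were higher by 0.27 to 0.38. RPS25, a small-subunit protein known for its part in viral internal ribosome entry, stood at 65.2 to 76.5 CPM at 1 h (median 68.2) and 78.1 to 94.9 CPM at 3 h (median 85.5), and the groups did not overlap. It rose by 0.31 ± 0.09 (adjusted p = 0.00561, edgeR quasi-likelihood test). RPL8 stood at 220.1 to 300 CPM at 1 h (median 240) and 289 to 364 CPM at 3 h (median 324), with a small overlap. It rose by 0.38 ± 0.12 (adjusted p = 0.00920 in the same edgeR test), the largest rise among the members.

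The 5 lower genes were RPL21, RPL34, RPL36A, RPL37 and RPS9. RPL37, a large-subunit protein, stood at 246 to 330 CPM at 1 h (median 273) and 199 to 238 CPM at 3 h (median 221), with no overlap in any line. It fell by -0.36 ± 0.08 (adjusted p = 0.000393, edgeR quasi-likelihood test). RPL34 fell by -0.26 ± 0.07 and RPL36A by -0.33 ± 0.09, with adjusted p of 0.00530 and 0.00577 in the same edgeR test. Thus the member with the smallest adjusted p moved against the larger number of called members.

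The genes that mark the group did not pass between 1 h and 3 h. RPL3 changed by 0.00, RPS6 by 0.06 and RPLP0 by 0.16 (adjusted p = 0.241, edgeR quasi-likelihood test). RPL5 (-0.10) and RPL11 (-0.01) of the 5S particle and RPLP1 of the stalk (-0.04) were not called, while RPLP2 of the stalk rose by 0.28 ± 0.11 (adjusted p = 0.0454 in edgeR's test). RPSA (-0.01), RPS27A (-0.07), RPS4X (0.06), RPL23 (-0.04) and RPL26 (0.03), whose proteins include 2 further partners of MDM2 in RPL23 and RPL26, were not called either. Of the paralogs, RPL3L (0.15), RPL10L (0.02), RPL39L (-0.04) and RPS27L (-0.08) were not called.

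The change from 1 h to 3 h followed exon GC content. Across the 82 genes it had Pearson's r 0.68 with the GC content of the exons, and across 23603 genes with a GC value r was 0.42. The genes share libraries, so this is a description with no test. Members had exon GC of 39.8% to 64.6% (median 48.6%), close to the median of all genes at 47.7%. The 14 higher members had a median of 54.6% (49.7% to 64.6%), and the 5 lower members a median of 43.3%, with RPS9 at 55.8% the exception. Against 0 h, r over the members was -0.67 at 1 h, 0.62 at 2 h and 0.48 at 3 h.

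**Figure D3:**
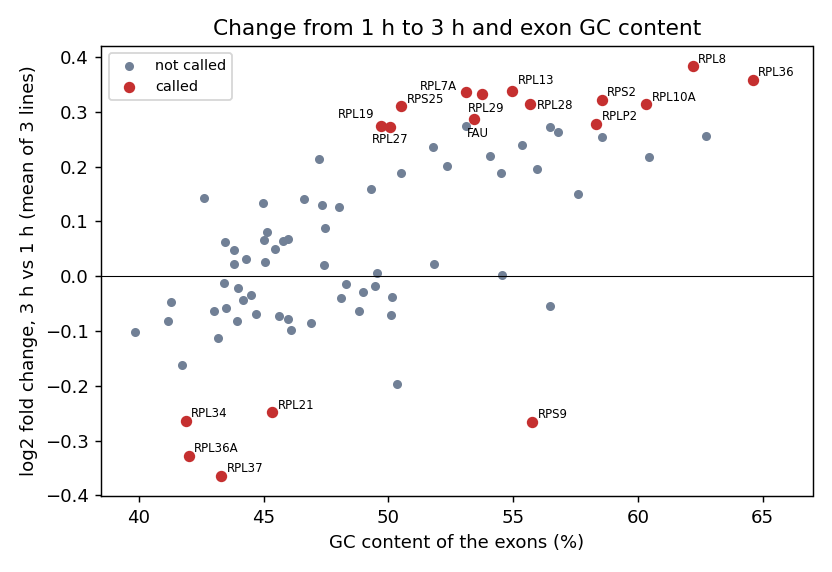
Log2 fold change from 1 h to 3 h, mean of the 3 lines (vertical axis), against exon GC content in percent (horizontal axis) for 80 of the 82 genes, with called genes in red and named. The called higher genes lie at 49.7% GC or above, and 4 of the 5 called lower genes lie below 46%, with RPS9 at 55.8%.

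With the GC trend of each library removed, 9 members were higher and 8 lower, of which 6 in total were also among the 19 above (24.8% and 22.8% of all tested genes). The same correction gave 6 higher and 1 lower at 2 h against 0 h (15.2% and 12.5%), with 2 shared with the 5 calls above, and 0 higher and 5 lower at 3 h against 0 h (21.1% and 19.7%), with 1 shared with the 4 calls. From 1 h to 3 h, RPL8, RPL10A and RPS2 then changed by -0.12, -0.13 and -0.04. RPS25 and RPL37 stayed called in the same direction under all 18 alternatives run for them. Without single libraries the counts ranged from 8 to 25: 19 higher and 3 lower without wt 1 h replicate 1 and also without Ctrl 3 h replicate 1, 21 and 4 without Ctrl 1 h replicate 2, 5 and 6 without wt 1 h replicate 2, 5 and 4 without wt 3 h replicate 2, 5 and 5 without SoF 1 h replicate 2 or Ctrl 1 h replicate 1, 8 and 4 without SoF 3 h replicate 2, and 4 and 4 without Ctrl 3 h replicate 2. In these fits 21.8% to 23.6% of all tested genes were higher and 21.1% to 23.3% lower. Scaling by total counts gave 12 higher and 7 lower. With no filter on low counts, 25 were higher and 2 lower, against 12.7% and 11.8% of 48707 genes.

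Other gene groups were read at the same times, as the mean of the lines. The shares of all tested genes higher and lower were 16.2% and 12.6% at 2 h and 20.9% and 19.3% at 3 h. From 1 h to 3 h they were 25% and 25.6%. The difference between these groups and all genes was not tested. Genes for mitochondrial ribosomal proteins, which build the separate ribosome of mitochondria, gave more calls: of 78 tested, 24 were higher and 1 lower at 2 h and 26 higher and 4 lower at 3 h, with medians of 0.18 and 0.17. From 1 h to 3 h, 37 were higher and 7 lower (median 0.23), led by MRPS34 (1.40), MRPS26 (1.14) and MRPL24 (0.89). The other mRNAs with a TOP tract, mostly translation factors, were nearer to the members: of 21 tested, 3 were higher and 1 lower at 2 h and 1 higher and 3 lower at 3 h (medians 0.12 and -0.04). Here EEF1B2 (-0.41), NAP1L1 (-0.39) and TPT1 (-0.29) fell and EIF4B (0.19) rose at 3 h. Of 12 abundant glycolysis genes, 9 were higher at 2 h, 7 at 3 h and 11 from 1 h to 3 h, with 0 lower. The pyrimidine tract was at the start of 12 of 13 of the other TOP genes with a window (92.3%), 16 of 69 mitochondrial ribosomal protein genes (23.2%) and 2 of 12 glycolysis genes (16.7%). CCGGAA was in 62.3% and AAGATGGC in 30.4% of the 69 mitochondrial ribosomal protein genes.

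**Figure D4:**
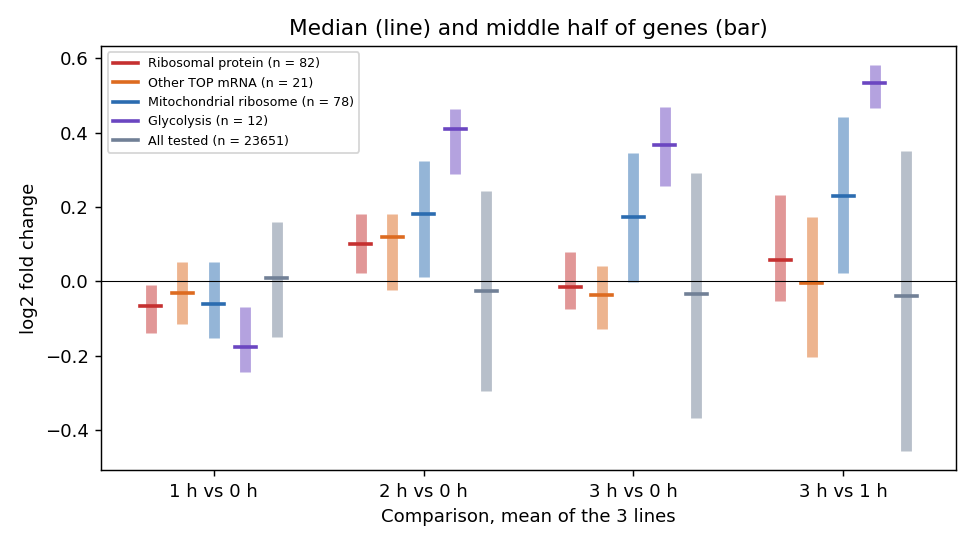
Median log2 fold change (short line) and the range from the lower to the upper quartile (bar) on the vertical axis for 5 groups of genes in 4 comparisons of times, as the mean of the 3 lines, on the horizontal axis. The 82 ribosomal protein genes lie near 0 at 3 h against 0 h (median -0.02), below mitochondrial ribosomal protein genes (0.17) and glycolysis genes (0.37), and their bar is narrower than that of all tested genes.

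A list of regulators of ribosomal protein production and a list of chaperones, not all of them specific to ribosomal proteins, also held called genes. At 3 h, 20.9% of all tested genes were higher and 19.3% lower in the mean of the lines. Of 15 regulators, 6 were higher and 1 lower at 3 h. MYC, which activates ribosome production, fell by -1.22 ± 0.11 (adjusted p = 9.76e-09, edgeR quasi-likelihood test), while UBTF, a factor of RNA polymerase I, rose by 0.86, LARP1 by 0.80 and YY1 by 0.39. Of 15 chaperones, 5 were higher and 0 lower at 3 h, among them HGH1 (0.95), HEATR3 (0.91), which escorts RPL5, PDCD2L (0.63) and GRWD1 (0.37), a chaperone of RPL3. RPL3 and RPL5 themselves were not called.

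Close relatives outside the rule were called at several times. RPL26L1, at a mean of 18.8 CPM, fell by -0.79 ± 0.12 at 3 h against 0 h (adjusted p = 1.82e-05, edgeR quasi-likelihood test) and RPL22L1 by -0.30 ± 0.09 (adjusted p = 0.0121 in the same edgeR test), while RPL7L1 rose by 0.21 ± 0.07 at 2 h. Their counterparts RPL26, RPL22 and RPL7 were not called at those times. RPL36AL rose by 0.28 from 1 h to 3 h, when its counterpart RPL36A fell. Of 308 ribosomal protein pseudogenes that passed the filter, 4 were higher and 45 lower at 3 h (median -0.22). The shares of all tested genes in the mean of the lines were 20.9% and 19.3%. Counts at pseudogenes may include RNA of the parents.

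Whether the response to dexamethasone differed between lines was tested next. The 3 h responses were compared as interaction contrasts, and 0 of the 82 members differed for SoF against wt, Ctrl against wt or SoF against Ctrl in the quasi-likelihood test of edgeR, Benjamini-Hochberg adjusted. The shares of all tested genes called were 0%, 0% and 0.0127%. No member passed at an unadjusted p under 0.05 in that test, against 2.36%, 3.57% and 2.84% of all tested genes, and DESeq2 called 0, with no adjusted p for 3 members in SoF against Ctrl. The median difference was 0.17 for SoF minus wt and 0.24 for Ctrl minus wt, each with 80 of 82 genes above 0, and -0.06 for SoF minus Ctrl. The median half-width of an interval was 0.49, so that differences of this size could not be called for single genes. Both contrasts with wt share the wt libraries, and the medians moved with single 0 h libraries. Without single libraries the median for SoF minus wt ranged from -0.01 (without SoF 0 h replicate 2) to 0.38 (without SoF 0 h replicate 1). For Ctrl minus wt it ranged from 0.06 (without Ctrl 0 h replicate 2) to 0.41 (without Ctrl 0 h replicate 1). For SoF minus Ctrl it ranged from -0.23 (without SoF 0 h replicate 2) to 0.14 (without SoF 0 h replicate 1) and also turned positive without Ctrl 0 h replicate 2 (0.09) or Ctrl 3 h replicate 2 (0.05). Without wt 0 h replicate 1, the library with the highest summed level, the medians against wt were 0.02 and 0.09.

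The lines were also compared over all times. With 8 libraries per line and time ignored, 0 members were higher and 4 lower in SoF than in wt (4.57% and 3.45% of the 21122 tested genes), 2 were higher and 4 lower in Ctrl than in wt (2.11% and 2.66%), and 0 were higher and 1 lower in SoF than in Ctrl (2.16% and 1.45%). The medians over the 82 genes were -0.08, -0.00 and -0.09, against -0.01, -0.00 and 0.00 over all genes. The contrasts with wt share the wt libraries. The intervals lay within 1.5-fold of no difference for 80, 79 and 81 of the 82 genes. With time as an added term the counts were 1 higher and 15 lower, 5 and 7, and 3 and 6, against 29%, 18.8% and 13.3% of all genes called in either direction. With scaling by total counts they were 3 higher and 2 lower for SoF against wt and 2 and 0 for SoF against Ctrl.

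RPL10L differed most. This retrogene copy of RPL10 stood at 10.5 to 14.3 CPM in wt (median 12.2), 6.32 to 9.80 CPM in SoF (median 7.20) and 6.23 to 7.95 CPM in Ctrl (median 6.46), and the wt libraries overlapped neither mutant line. It was lower by -0.67 ± 0.10 in SoF (adjusted p = 0.000123) and by -0.84 ± 0.10 in Ctrl (adjusted p = 8.99e-06, edgeR quasi-likelihood test, as for the other line comparisons). RPL10 itself was not called in either mutant line. RPL10L has no intron, so its reads could be shared with other copies of RPL10. RPL39L, a paralog of RPL39, stood at 5.79 to 9.17 CPM in wt (median 7.13), 3.98 to 6.54 CPM in SoF (median 4.93) and 3.89 to 6.57 CPM in Ctrl (median 5.61), with overlap. It was called in SoF (-0.49 ± 0.12, adjusted p = 0.0173 in edgeR's test) and not in Ctrl (-0.37 ± 0.12, adjusted p = 0.0883 in edgeR's test).

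The other members named here were core subunits with smaller differences. RPL15 stood at 258 to 393 CPM in wt (median 334), 223 to 311 CPM in SoF (median 281) and 220.5 to 276 CPM in Ctrl (median 263), and was lower by -0.28 ± 0.08 and -0.39 ± 0.08 in the mutant lines. RPL4 stood at 531 to 691 CPM in wt (median 582) and 448 to 577 CPM in SoF (median 507), and was lower by -0.22 ± 0.06 in SoF and by -0.01 in Ctrl, where it was not called. The SoF calls were lost in 6 of 23 alternatives for RPL15 and in 10 of 23 for RPL4, and the Ctrl call of RPL15 in 0 of 23. In both of these the libraries of the lines compared overlapped.

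RPS24 was the clearest of the genes that were higher in Ctrl. It stood at 321 to 363 CPM in wt (median 338) and 387 to 462 CPM in Ctrl (median 399), with no overlap, and was higher by 0.26 ± 0.06 (adjusted p = 0.00666, edgeR quasi-likelihood test). In SoF its difference from wt was 0.13 (adjusted p = 0.140 in the same edgeR test). RPS23, a protein of the decoding centre, stood at 165 to 236 CPM in wt and 200.0 to 252 CPM in Ctrl and was higher by 0.25 ± 0.07, a call lost in 15 of 23 alternatives. The call of RPS24 was lost in 1 of 23. Without single libraries the 2 higher calls became 3 without wt 0 h replicate 1 and 1 in 12 of the other fits, and stayed 2 without wt 1 h replicate 1, Ctrl 0 h replicate 2 or Ctrl 3 h replicate 1, and with no filter on low counts there were 0. The 10 tested genes on each side of RPS24 (chr10:78033760-78056813) had a median difference of 0.20, with 14 of 20 above 0.

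RPSA and RPL14 were called lower in Ctrl than in wt. RPSA stood at 263 to 376 CPM in wt (median 322) and 240.3 to 287 CPM in Ctrl (median 269), a difference of -0.30 ± 0.07. RPL14 stood at 153 to 202 CPM in wt (median 176) and 124 to 167 CPM in Ctrl (median 147), a difference of -0.27 ± 0.08, and this call was lost in 11 of 23 alternatives. The libraries of the lines overlapped for both genes, and neither was called between SoF and wt or between SoF and Ctrl.

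RPL15, RPSA and RPL14 lie on the short arm of chromosome 3, at chr3:23916591-23924374, chr3:39406716-39426255 and chr3:40457292-40468587. Their neighbours were also lower in Ctrl than in wt. Of the 10 tested genes on each side, 20 of 20 were below 0 around RPL15 (median -0.34), 19 of 19 around RPSA (median -0.28) and 19 of 19 around RPL14 (median -0.33). The stretches around RPSA (chr3:38548057-40761799) and RPL14 (chr3:39152906-42601080) overlap, so some neighbours are counted in both. Around RPL29 (chr3:51993522-51995895, -0.35, adjusted p = 0.124 in edgeR's test) 19 of 20 were below 0 with a median of -0.35, and around RPL32 (chr3:12834485-12841582, -0.20) 12 of 20 with a median of -0.16. The 5 members in this stretch were all below 0 in Ctrl, a grouping chosen after their values were seen. They were also all below 0 in SoF against wt (-0.06 for RPL14 to -0.28 for RPL15), where RPL15 alone was called. In that comparison the medians of the neighbours were -0.08 around RPL15, -0.07 around RPSA and RPL14, -0.19 around RPL29 and -0.04 around RPL32. In SoF against Ctrl, which shares these libraries, 17 of 20 neighbours were above 0 around RPL15 and 17 of 19 around RPSA. The counts were 18 of 19 around RPL14, 20 of 20 around RPL29 and 11 of 20 around RPL32. None of these members was called between SoF and Ctrl. RPL10L (chr14:46651010-46651781) was at -0.84 in Ctrl against wt, where the median of its neighbours was -0.07 with 0 of 19 called. In SoF against wt the median of its neighbours was -0.03, and 5 of 19 were called lower, against 3.45% of all tested genes. Whether the number of copies of these regions differs between the lines was not tested.

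**Figure D5:**
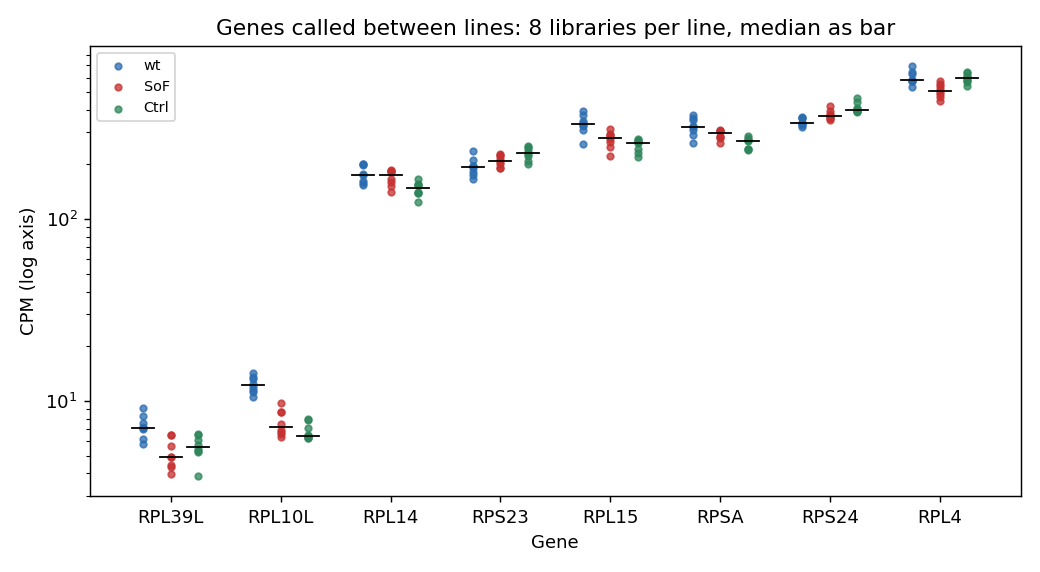
CPM (vertical log axis) of 8 members called in at least 1 comparison of lines (horizontal axis, ordered by level), with 1 point for each of the 8 libraries of wt, SoF and Ctrl and the median as a bar. RPL10L in wt (10.5 to 14.3 CPM) lies above all libraries of both mutant lines, and RPS24 in Ctrl (387 to 462 CPM) above all wt libraries, while the other genes overlap between lines to differing extents.

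The comparisons of lines also changed with single libraries. Without wt 1 h replicate 2, 12 members were lower in SoF than in wt (4.98% of all tested genes), and without wt 0 h replicate 1, SoF 0 h replicate 2, wt 2 h replicate 1 or SoF 1 h replicate 2 there were 2. The single call between SoF and Ctrl became 2 calls without SoF 0 h replicate 1 or Ctrl 0 h replicate 2 and stayed 1 without Ctrl 3 h replicate 1. It was lost without each of the other 13 single libraries. RPL22L1, outside the rule, was higher in SoF than in both other lines (0.49 ± 0.11 against wt, adjusted p = 0.00628, edgeR quasi-likelihood test), and RPL36AL was lower in SoF than in wt (-0.40 ± 0.09, adjusted p = 0.00963 in the same edgeR test).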

How the data were processed

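Per the labels and the study's methods, the authors tagged UMIs with UMI-tools 1.1.2, trimmed reads with Trim Galore 0.6.6, aligned them to hg38 with STAR 2.7.3a, removed duplicate molecules and counted reads over exons with featureCounts on GENCODE release 39. The deposited values are these raw counts per gene and library, and no column was left unused. The deposited table is named as stranded counts. How multimapping reads were treated was not given in the sources used here, so genes with pseudogenes or same-strand overlaps are uncertain. Biotinylation and pulldown were done per pair of replicates.

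Symbols, types, exons and positions came from GENCODE release 44 (61369 of 61533 genes matched, 99.7%). edgeR 4.0.16 (limma 3.58.1, R 4.3.3) fitted all genes with TMM scaling, filterByExpr (minimum count 10, minimum total 15) and the quasi-likelihood F test with Benjamini-Hochberg adjustment. A fit over 12 groups (23651 genes) gave the times and interactions, and a fit over 3 lines (21122 genes) gave the lines. Calls needed an adjusted p under 0.05. The SE was the size of the log2 fold change over the root of F. DESeq2 1.42.0, other scalings and filters, a GC correction and left-out libraries were alternatives, and the script was tested on simulated data. Named genes were RPL3, RPS6, RPLP0, the other markers of each role, and called members. The members follow from symbol and gene type, but the choice of this group and of the other lists was made with earlier results of these data known. Start windows came from RefSeq. Figures used matplotlib 3.10.9. Values of a few genes are not reported here, by name or in the plots of single genes.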

Additional observations from a re-analysis of the deposited data

Results flagged for a closer look

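Within the 8 libraries of a line, 3 of 132 groups of values for the named genes held a library far from the other 7 by Dixon's criterion, where chance gives about 1 in 20. RPL24 was high in SoF 0 h replicate 1, at 154 CPM with the next library at 134 CPM. RPS27L, a p53-responsive paralog of RPS27, was high in SoF 1 h replicate 1, at 110 CPM (109.85) with the next at 87.1 CPM. RPS4X was low in Ctrl 0 h replicate 2, at 179 CPM with the next at 212 CPM.

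RPS27L also moved in opposite directions from 0 h to 3 h in 2 lines. In wt it stood at 80.0 and 86.8 CPM at 0 h and 78.8 and 71.8 CPM at 3 h, and in Ctrl at 68.1 and 63.1 CPM at 0 h and 75.2 and 72.0 CPM at 3 h. The difference of the 2 changes was 0.31 ± 0.24 on the log2 scale, for which edgeR's quasi-likelihood test gave an adjusted p of 0.982.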

How the results depend on the processing

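Counts of members called within wt, SoF and Ctrl stayed at 0 under DESeq2, other scalings and no filter on low counts, while the GC correction gave 2 in wt and 1 in SoF at 3 h, and leaving out single libraries gave 0 to 1 in SoF at 3 h, 0 to 7 in Ctrl at 2 h and 0 to 5 in Ctrl at 3 h. For the mean of the lines at 2 h, the 5 calls became 3 with DESeq2's size factors in edgeR and 3 with total counts, 7 with the GC correction (2 shared), 45 and 0 without all 0 h libraries of replicate 1 and of replicate 2, and 0 to 18 without single libraries. At 3 h the 4 calls became 2 with no filter, 5 with the GC correction (1 shared), 34 and 9 without the same 0 h libraries, and 1 to 10 without single libraries, and at 1 h 34 members were called without 0 h replicate 2. From 1 h to 3 h the 19 calls ranged from 8 to 25 without single libraries, no filter gave 25 higher and 2 lower, and the GC correction reversed RPL8 (-0.12), RPL10A (-0.13) and RPS2 (-0.041). Between lines, SoF against wt gave 2 with no filter, 16 with time as a term, 7 with the GC correction and 2 to 12 without single libraries. Ctrl against wt gave 3, 12 and 4 to 6 for no filter, time and single libraries. SoF against Ctrl gave 4 with DESeq2, 2 with total counts, 0 with no filter, 9 with time, 2 with the GC correction and 0 to 2 without single libraries. The cause of these changes was not tested. No scaling moved the median of all genes by over 0.1.

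Over 66 pairs of groups, same-numbered libraries' deviations had correlations of -0.26 to 0.62 (median 0.04, 23 over 0.1). Among the 3 groups at 0 h they were 0.43 to 0.62, so same-numbered 0 h libraries deviated together. SoF 0 h also had 0.41 with SoF 1 h and 0.49 with SoF 2 h, while 9 of the 66 pairs were under -0.1. The numbers did not pair the samples over the whole design. With the replicate block, 7 members were called at 2 h and 23 from 1 h to 3 h, and other counts were unchanged. Of the 35 calls of named genes, 35 held with DESeq2, 23 with no filter and 17 with the GC correction, which ended 15 and reversed 3. Over the single-library fits 319 values of these calls held and 145 were lost. Depth limits RPL3L, RPL10L and RPL39L most, the 3 members under 10 CPM.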
